A study of Canis lupus familiaris with 17 samples.

Results

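Immune checkpoint genes encode receptors, and the ligands that engage them, which raise or lower the response of lymphocytes. The 9 examined here were CTLA4, PDCD1, LAG3, TIGIT, HAVCR2, ICOS and BTLA, which are receptors, and CD274 and VTCN1, which are ligands. They were taken by their symbols from the 20257 genes of the deposited count matrices of dog blood leukocytes, and all 9 had a row in each of the 17 matrices. No expression value entered the choice of these genes, although they were proposed with earlier results of the same data known.

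As background, a T cell is activated through its antigen receptor together with a second signal, most often from CD28 bound by CD80 or CD86 on an antigen-presenting cell. CTLA4 binds the same ligands and lowers that signal, and PDCD1 (PD-1) recruits phosphatases to the activated receptor when it meets CD274 (PD-L1). In blood such receptors are known best on regulatory, memory and effector T cells, and antibodies against several of them or their ligands are used as cancer drugs.

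The study compared 7 healthy client-owned dogs with 10 client-owned dogs that had osteosarcoma (OS), a bone tumor; the labels give wild type as the genotype and blood leukocytes as the tissue of every dog. The OS dogs had not been treated and still carried the primary tumor, and no tumor tissue was part of these samples. The study describes the dogs of both groups as middle-aged and sets older OS dogs apart in one of its comparisons. The OS dogs spanned a wider range of ages than the healthy dogs, and the oldest dogs were all OS dogs. Ages come from the study's text and not from the labels, and age entered here only as an alternative covariate. Cells were recovered from blood on a density gradient with lysis of red cells, so neutrophils in these samples are those that stayed with the mononuclear layer, and each dog gave 1 library of 10x Genomics 3′ gene expression.

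The libraries held 3650 to 7748 cell barcodes and 27811378 to 46295707 UMIs (unique molecular identifiers, 1 per captured transcript) in the healthy dogs, and 1332 to 7520 barcodes and 7740230 to 56510134 UMIs in the OS dogs. OS dog 3 had the lowest values of both. Of 93013 barcodes, 84345 were within the limits set on cells, 80407 remained after removal of predicted doublets, and 76908 were leukocytes. Any 2 libraries shared at most 22 barcode sequences, with a median of 8.

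Clusters were named from marker genes, with the 9 genes and the related receptors and ligands described below kept out of the clustering, and each class name stands for cells that resembled that class by its markers. How many markers a name required was decided with the clusters in view. Levels are given as CPM, the count of a gene per 1000000 UMIs of all cells of 1 class in 1 dog, scaled by the TMM method. FOXP3, the transcription factor of regulatory T cells, averaged 13.7 CPM in the T reg class and at most 1.45 CPM in the other classes. CD3E, a chain of the T cell receptor complex, averaged 911 CPM in the double-negative (DN) T cells, where CD4 averaged 10.5 and CD8A 13.1 CPM. In the NK cells CD3E averaged 10.3 CPM and the NK receptor gene KLRF1 124 CPM. The neutrophils, which express CD4 in dogs, had 4477 CPM of CD4. FOXP3, CD3E and the balance of CD4 and CD8 levels also entered the naming. Such levels therefore describe the named classes and are no independent support for the names. Of 36 named classes, 31 had at least 25 cells in at least 3 dogs and carry the levels below. Reads come from the 3′ end of transcripts. The study counted its libraries with and without intron reads, and which of these counts was deposited and how strand was treated are not given in the sources used here, so the levels are compared between classes and dogs and never between genes.

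Most of the UMIs of CTLA4, ICOS and PDCD1 lay in T cells, most of those of BTLA in B cells, of CD274 in monocytes and of VTCN1 in CD8 T and NK cells. T cells were 56.6% of all leukocytes and held 95.6% of the 26158 CTLA4 UMIs, 96.4% of the 44525 ICOS UMIs and 96.2% of the 2471 PDCD1 UMIs. B cells were 8.79% of the leukocytes and held 79.0% of the 16523 BTLA UMIs. Monocytes were 18.3% of the leukocytes and held 79.8% of the 6411 CD274 UMIs. The CD8 T and NK cells were 20.5% of the leukocytes and held 83.996% of the 3143 VTCN1 UMIs. Here and below this population includes the DN T cells, except where it is called the other CD8 T and NK cells. HAVCR2 was the most evenly spread, with 49.6% of its 5168 UMIs in T cells, 23.1% in monocytes and 13.4% in dendritic cells, which were 1.37% of the leukocytes. LAG3 had 1581 UMIs and TIGIT 305 in all, of which T cells held 79.7% and 84.9%.

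**Figure D1:**
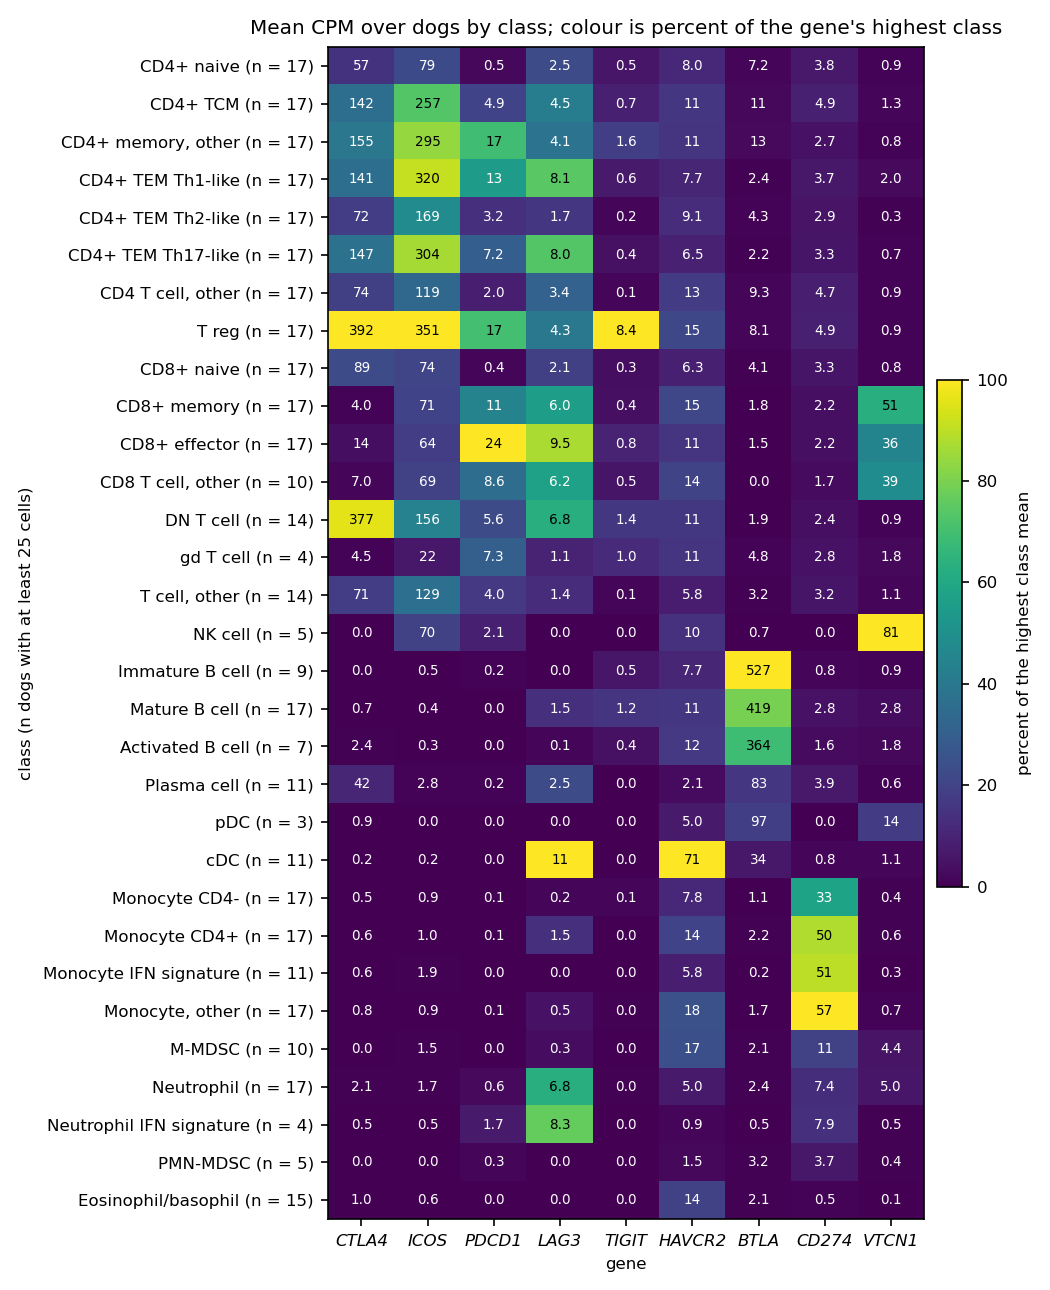
Mean level over dogs of each of the 9 genes (columns) in each of the 31 classes (rows), in CPM (numbers), with the color giving the percent of that gene's highest class. CTLA4 and ICOS are high in several CD4 T cell classes, BTLA in B cells, CD274 in monocytes, VTCN1 in NK and CD8 T cells, and TIGIT in the T reg class.

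Class was compared with class within dogs, with the counts summed per dog and class, edgeR's quasi-likelihood test with the dog as a block, and Benjamini-Hochberg adjustment over all genes tested. A gene was called where its adjusted p was below 0.01 and its log2 fold change was beyond 0.58 in either direction. The classes were made from the same cells that were tested, which the p-values do not cover. In T reg cells against all other CD4 T cells, 5 of the 9 genes were higher and none lower, where 5.64% of all 14498 genes tested were higher and 6.5% lower (12.1% called). In memory CD4 T cells (central memory, effector memory and Th-like classes) against naive CD4 T cells, 4 of 9 were higher and none lower, where 9.39% of all genes were higher and 4.72% lower (14.1% called). In CD8+ effector against CD8+ naive cells 4 of 9 were higher and 2 lower, where 13.8% of all genes were higher and 9.58% lower (23.4% called). In DN T cells against the other CD8 T and NK cells 2 were higher and 2 lower, where 3.65% of all genes were higher and 8.67% lower (12.3% called).

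Contrasts between distant cell types called a larger share of all genes. In B cells against T cells 1 of 9 was higher and 5 lower, where 14.8% of all genes were higher and 15.8% lower (30.6% called). In monocytes against T cells 1 was higher and 7 lower, where 24.2% of all genes were higher and 27.3% lower (51.4% called). In dendritic cells against monocytes 4 of the 7 genes tested were higher and 1 lower, where 16.1% of all genes were higher and 17.7% lower (33.8% called). Dendritic cells here, and in OS against healthy dogs, pool the conventional (686 cells), plasmacytoid (187) and other (177) dendritic cell classes. In neutrophils against monocytes 3 of 8 were higher and 2 lower, where 17.5% of all genes were higher and 33% lower (50.6% called). In these contrasts and in OS against healthy dogs, monocytes include cells that resemble monocytic myeloid-derived suppressor cells (M-MDSC). Neutrophils leave out the cells that resemble the polymorphonuclear kind (PMN-MDSC). In plasma cells against B cells 2 of 8 were higher and 2 lower, where 19.7% of all genes were higher and 24.1% lower (43.8% called). The last 2 contrasts set like cells side by side and called a small share. In NK cells against CD8+ effector cells, in 5 dogs, 1 of 8 was higher and 3 lower, where 2.4% of all genes were higher and 2.21% lower (4.61% called). In interferon (IFN) signature monocytes against other monocytes 1 of 7 was higher and none lower, where 1.23% of all genes were higher and 1.09% lower (2.32% called).

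**Figure D2:**
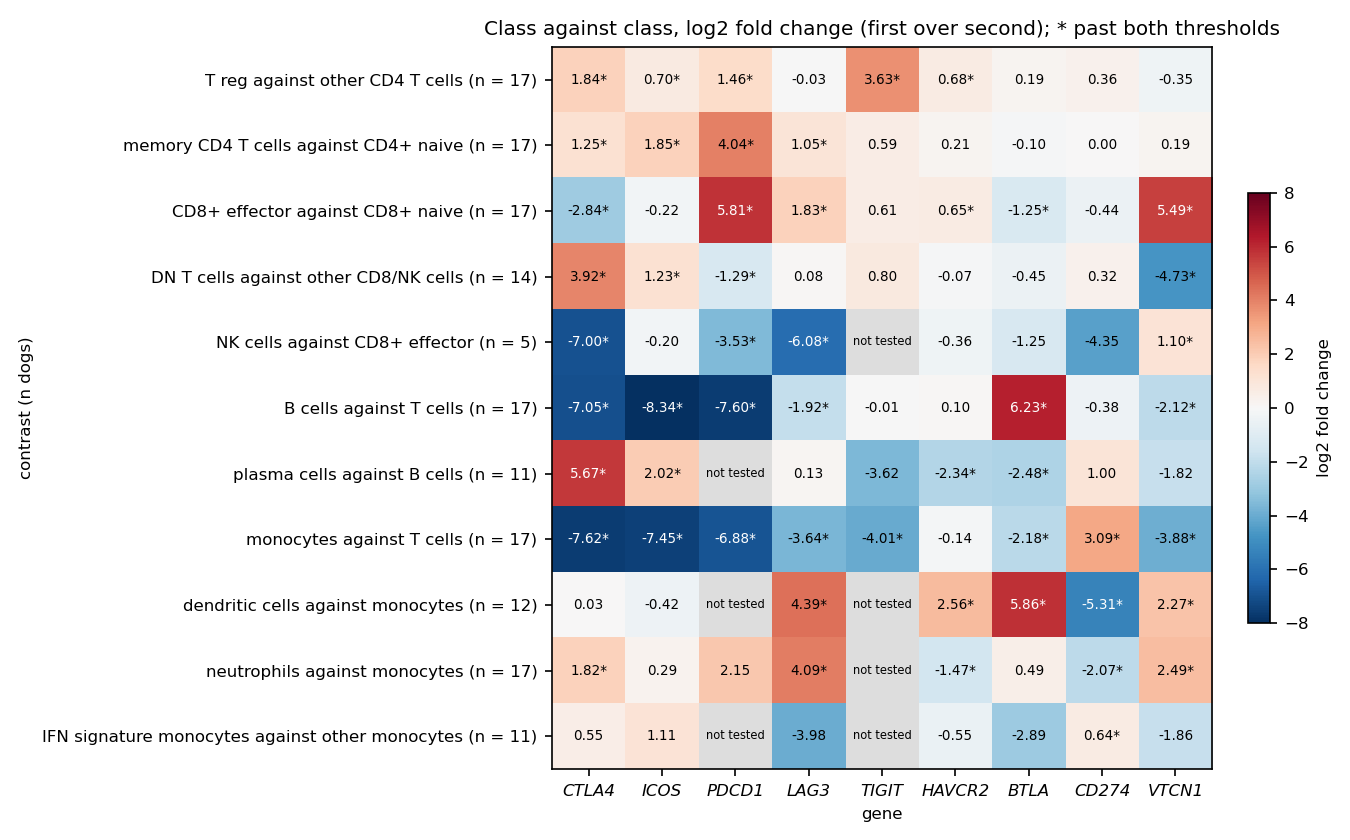
Log2 fold change of each of the 9 genes (columns) in each of the 11 class contrasts (rows), first class over second, with an asterisk where the gene passed both thresholds and gray where it was not tested. Values of genes with 0 counts in one class, such as CTLA4 and LAG3 in NK cells, depend on the fit and are no bound. The T reg, memory CD4 and CD8+ effector rows are positive for PDCD1, and the B cell and monocyte rows are negative for CTLA4, ICOS and PDCD1.

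CTLA4, the inhibitory receptor that competes with CD28 for CD80 and CD86, was highest in the T reg and DN T classes. It averaged 392 ± 96.1 CPM in T reg cells (SD, n = 17 dogs), with a lowest dog of 191, a median of 417 and a highest of 525. In DN T cells it averaged 377 ± 82.3 CPM (n = 14), between 236 and 516 with a median of 373. These classes did not differ beyond the spread of their paired differences, and both lay above the next, the other memory CD4 T cells, at 155 ± 39.3 CPM (n = 17). Such steps between neighbors in an order describe the spread among dogs and are not tests of a difference. The Th17-like, central memory and Th1-like classes followed at 147 ± 53.8, 142 ± 38.8 and 141 ± 50.2 CPM, each within the spread of its neighbor in the order. Naive CD8 T cells had 88.9 ± 39.2 CPM and naive CD4 T cells 57.006 ± 29.03 CPM. CD8+ effector cells had only 14.4 ± 10.7 CPM, and no CTLA4 count was found in the NK cells, the immature B cells or the MDSC-like classes.

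Against all other CD4 T cells, CTLA4 ran from 197 over a median of 423 to 536 CPM in the T reg cells and from 55.9 over 111 to 152 CPM in the rest. These ranges did not overlap. The log2 fold change was 1.84 (SE 0.0502, edgeR adjusted p = 8.28e-47), with T reg higher in 17 of 17 dogs. DN T cells had 235, 388 and 544 CPM as lowest, median and highest dog, against 9.54, 21.9 and 58.4 CPM in the other CD8 T and NK cells. Here too no dog of one class reached the range of the other, and the log2 fold change was 3.92 (SE 0.147, adjusted p = 1.11e-32, 14 of 14 dogs). The CTLA4 level of the DN T cells, in which CD4 and CD8A were low, was thus within the range of the T reg class.

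Antigen-experienced cells of the CD4 and CD8 lineages differed from naive cells in opposite directions for CTLA4. Memory CD4 T cells had 68.2, 139 and 165 CPM (lowest, median, highest) and naive CD4 T cells 17.1, 49.9 and 109 CPM, with a log2 fold change of 1.25 (SE 0.112, adjusted p = 2.82e-12, 17 of 17 dogs). CD8+ effector cells had 4.01, 9.41 and 41.7 CPM and naive CD8 T cells 19.9, 83.7 and 154 CPM, with a log2 fold change of −2.84 (SE 0.205, adjusted p = 8.28e-15, 16 of 17 dogs). The ranges overlapped in both contrasts. Among dogs the naive CD8 class had 4.16 to 178 CPM of CD8A, 0 to 95.8 CPM of CD4 (mean 18.7, against 17.01 in CD8+ effector and 191 in naive CD4 T cells) and 0 to 4.61 CPM of FOXP3, and the part of CD4 T cells in its CTLA4 level was not tested. The difference between these contrasts was not itself tested.

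Plasma cells carried CTLA4 where B cells had almost none. CTLA4 ran from 14.98 over 37.0 to 85.8 CPM in plasma cells of 11 dogs (280 UMIs) and from 0 over 0.465 to 1.45 CPM in the B cells (14 UMIs). The ranges did not overlap, with a log2 fold change of 5.67 (SE 0.268, adjusted p = 3.81e-21, 11 of 11 dogs). All 10 genes of the T cell marker list were present in plasma cells at a summed level of 46.6 to 215 CPM, with a mean of 117 CPM against 168 CPM in mature B cells and 3549 CPM in T reg cells. ICOS had 18 UMIs in the plasma cells of these dogs, and CD28 averaged 1.14 ± 2.09 CPM there. The part of T cell RNA in the CTLA4 counts of plasma cells was not tested.

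To compare the share of cells with at least 1 UMI at equal depth, each cell with at least 1000 UMIs was thinned to 1000. Shallower cells were left out, so that 4303 of 4420 neutrophils remained. CTLA4 was then found in 30.7% ± 7.01 of T reg cells (n = 17) and 32.4% ± 7.72 of DN T cells (n = 13), against 0.0896% ± 0.234 of neutrophils and 0.0411% ± 0.0735 of monocytes. Without thinning, and with the shallower cells included, these shares were 73.98%, 72.4%, 0.292% and 0.476%, at median depths of 5180.5, 4500, 1719 and 11209 UMIs. In plasma cells the thinned share was 3.55% ± 2.27 (n = 11).

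ICOS, a costimulatory receptor related to CD28 and CTLA4 that is induced on activated T cells, was highest in the same CD4 classes but spread more widely among them. It averaged 351 ± 64.4 CPM in T reg cells, with a lowest dog of 257, a median of 336 and a highest of 541. The Th1-like class followed at 320.4 ± 72.0 CPM, the Th17-like class at 304 ± 77.7, the other memory CD4 T cells at 295 ± 49.9 and the central memory class at 257 ± 77.9 CPM (n = 17 each), and no neighbor in this order differed beyond the spread. The step down to the Th2-like class, at 169 ± 36.2 CPM, was beyond it. DN T cells had 156 ± 46.0 CPM, naive CD4 T cells 78.7 ± 34.4 CPM and naive CD8 T cells 74.01 ± 27.5 CPM. NK cells had 69.6 ± 29.9 CPM in the 5 dogs with 25 of them.

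T reg cells had 249, 341 and 520 CPM of ICOS and other CD4 T cells 131, 221 and 311 CPM (lowest, median and highest dog), and the ranges overlapped. The log2 fold change was 0.70 (SE 0.0519, adjusted p = 3.15e-20, 16 of 17 dogs), and it fell to −0.00811 (adjusted p = 0.943) when predicted doublets were kept and the T reg class held 1624 instead of 2070 cells. Memory CD4 T cells had 169, 270 and 353 CPM and naive CD4 T cells 38.1, 62.6 and 160 CPM, without overlap, and the log2 fold change was 1.85 (SE 0.0959, adjusted p = 2.33e-19, 17 of 17 dogs). DN T cells had 68.3, 175 and 243 CPM against 14.1, 68.6 and 122 CPM in the other CD8 T and NK cells, with a log2 fold change of 1.23 (SE 0.112, adjusted p = 2.3e-14, 13 of 14 dogs). Unlike these contrasts, CD8+ effector against CD8+ naive cells gave a log2 fold change of −0.22 that did not pass (adjusted p = 0.289), and the effector cells ranged from 5.82 to 114 CPM. After thinning, ICOS was found in 26.1% ± 6.56 of T reg cells and 26.8% ± 8.08 of Th17-like cells, against 0.108% ± 0.281 of neutrophils (66.8%, 71.7% and 0.249% unthinned).

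CTLA4 and ICOS were found in the same T reg cell in 9.30% ± 3.097 of the thinned cells per dog, where the product of their separate shares was 7.99%. In DN T cells the share with both was 3.95% ± 2.50 and the product 4.02%. This is a description of cells within dogs and was not tested.

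PDCD1, the receptor of CD274, had its highest level in CD8+ effector cells at 24.1 ± 13.7 CPM (n = 17; 894 UMIs), from 3.65 over 24.2 to 51.5 CPM. T reg cells had 16.9 ± 8.54, the other memory CD4 T cells 16.7 ± 8.12, Th1-like cells 13.4 ± 11.3 and CD8+ memory cells 10.8 ± 7.75 CPM, and none of these neighbors differed beyond the spread. In CD8+ effector cells 2.55% ± 1.56 of thinned cells had a PDCD1 UMI, against 0.0997% ± 0.411 of neutrophils (9.83% and 0.109% unthinned, at median depths of 4245.5 and 1719 UMIs).

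PDCD1 was higher in memory and effector T cells than in naive ones. Memory CD4 T cells had 3.57, 8.36 and 20.5 CPM and naive CD4 T cells 0, 0.398 and 1.88 CPM, without overlap, and the log2 fold change was 4.04 (SE 0.218, adjusted p = 4.66e-23, 17 of 17 dogs). In CD8 T cells the naive class held 5 PDCD1 UMIs in all, at 0, 0 and 5.63 CPM, against 3.53, 23.9 and 50.7 CPM in the effector class (log2 fold change 5.81, SE 0.335, adjusted p = 1.28e-16, 17 of 17 dogs), and these ranges overlapped. T reg cells had 4.80, 15.7 and 40.4 CPM and other CD4 T cells 2.57, 6.04 and 12.6 CPM, with a log2 fold change of 1.46 (SE 0.134, adjusted p = 1.08e-15, 16 of 17 dogs). The other direction was seen in DN T cells, with 0, 3.08 and 21.3 CPM against 1.97, 12.6 and 32.3 CPM in the other CD8 T and NK cells (log2 fold change −1.29, SE 0.304, adjusted p = 0.000532). That call was lost with looser limits on cells (adjusted p = 0.0168) and without the block (adjusted p = 0.0437). B cells held 1 PDCD1 UMI against 2378 in T cells, a ratio per UMI of 308-fold with a 95% counting interval from 55.2 to 12154.

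LAG3, a receptor related to CD4 that binds MHC class II, had few UMIs and no single leading class. Conventional dendritic cells (cDC) had 10.8 ± 4.83 CPM (n = 11; 85 UMIs), CD8+ effector cells 9.46 ± 8.93 (n = 17; 283 UMIs), IFN signature neutrophils 8.27 ± 6.15 (n = 4; 7 UMIs), Th1-like cells 8.07 ± 4.34 and Th17-like cells 7.96 ± 5.55 CPM, and no neighbor at the top of the order differed beyond the spread. Neutrophils had 6.82 ± 5.53 CPM from 41 UMIs. At 1000 UMIs per cell LAG3 was found in 0.776% ± 0.657 of CD8+ effector cells and 0.470% ± 0.460 of neutrophils (4.004% and 0.916% unthinned). In monocytes, where LAG3 was lower still, the share was 0.0504% ± 0.0825 (0.330% unthinned, at a median depth of 11209 UMIs).

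In the tested sums, LAG3 was higher in dendritic cells than in monocytes, with 3.38, 8.13 and 14.1 CPM against 0, 0.294 and 0.874 CPM in 12 dogs. The ranges did not overlap, and the log2 fold change was 4.39 (SE 0.288, adjusted p = 7.38e-13, 12 of 12 dogs). Neutrophils had 0, 5.27 and 15.4 CPM and were also higher than monocytes, with a log2 fold change of 4.09 (SE 0.408, adjusted p = 2.97e-14, 14 of 17 dogs) on 48 UMIs. LAG3 lies next to CD4 in the RefSeq annotation of the dog genome, and CD4 averaged 4477 CPM in the neutrophils but 6.14 CPM in cDC. Whether reads of one were counted to the other was not tested. LAG3 also rose from naive to memory CD4 T cells (log2 fold change 1.05, adjusted p = 7.99e-06) and from CD8+ naive to CD8+ effector cells (1.83, adjusted p = 2.67e-07), with 16 of 17 dogs in that direction in each.

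TIGIT, an inhibitory receptor that binds PVR and NECTIN2, had its highest mean in T reg cells, on a low count. It averaged 8.37 ± 4.70 CPM there (n = 17; 96 UMIs), from 0 over 7.77 to 18.6 CPM, and at most 1.56 CPM in any other class. The step to the next class, the other memory CD4 T cells, was within the spread, with a mean paired difference of 1.86 in log2(CPM + 1) and an SD of 1.88. Against other CD4 T cells, T reg cells had 0, 7.94 and 19.2 CPM and the rest 0.164, 0.504 and 1.96 CPM from 90 UMIs, with T reg higher in 15 of 17 dogs. The log2 fold change was 3.63 (SE 0.286, adjusted p = 6.51e-19). Healthy dog 3 and OS dog 10, with 125 and 93 T reg cells, had no TIGIT UMI in this class. At 1000 UMIs, 0.831% ± 1.01 of T reg cells and 0.0044% ± 0.018 of neutrophils had a TIGIT UMI (4.77% and 0.0043% unthinned).

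HAVCR2 (TIM-3), a receptor of several ligands including LGALS9 and HMGB1, was highest in conventional dendritic cells. In cDC it averaged 70.8 ± 12.6 CPM (n = 11), from 38.5 over 73.9 to 84.8 CPM, and the step to the next class was beyond the spread. That class, the other monocytes, had 17.6 ± 9.13 CPM and T reg cells had 15.3 ± 5.38 CPM. Through the T cell, B cell and monocyte classes below them no step between neighbors was beyond the spread, which does not make distant classes alike. Plasmacytoid dendritic cells (pDC) were near the bottom of the order, at 5.02 ± 2.04 CPM (n = 3; 7 UMIs). After thinning, 6.78% ± 2.44 of cDC had a HAVCR2 UMI against 0.541% ± 0.610 of naive CD4 T cells (50.6% and 3.82% unthinned, at median depths of 15419.5 and 5624 UMIs). Dendritic cells had 16.0, 42.4 and 61.2 CPM and monocytes 5.10, 6.71 and 10.9 CPM, without overlap (log2 fold change 2.56, SE 0.153, adjusted p = 7.99e-13, 12 of 12 dogs). In T reg against other CD4 T cells the log2 fold change was 0.68 (adjusted p = 9.43e-06, 17 of 17 dogs) and passed neither with doublets kept (0.33, adjusted p = 0.182) nor with looser limits on cells (0.58, at the edge of the fold threshold). The difference of 0.65 between CD8+ effector and naive cells (adjusted p = 0.00074) was lost under 4 alternatives.

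BTLA, an inhibitory receptor that binds TNFRSF14 (HVEM), was a B cell gene by level. Immature B cells had 527 ± 112 CPM (n = 9; 301 to 688), mature B cells 419 ± 73.2 CPM (n = 17; 276 to 563) and activated B cells 364 ± 51.4 CPM (n = 7; 269 to 421), and each step of this order was beyond the spread. pDC followed at 96.8 ± 16.0 CPM (n = 3), plasma cells at 82.6 ± 20.7 CPM (n = 11) and cDC at 34.2 ± 12.1 CPM (n = 11). Among T cells the other memory CD4 T cells were highest at 12.8 ± 4.50 CPM. BTLA was found in 34.7% ± 4.34 of thinned mature B cells and 0.270% ± 0.540 of neutrophils (78.04% and 0.378% unthinned).

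B cells had 273, 444 and 569 CPM of BTLA and T cells 2.81, 5.87 and 9.95 CPM, a log2 fold change of 6.23 (SE 0.105, adjusted p = 1.25e-27) in 17 of 17 dogs. Plasma cells had less than B cells, with 41.9, 72.6 and 109.7 CPM against 371, 401 and 497 CPM (log2 fold change −2.48, SE 0.102, adjusted p = 2.35e-20, 11 of 11 dogs). Dendritic cells had 21.1, 45.4 and 59.9 CPM and monocytes 0, 0.704 and 2.22 CPM (log2 fold change 5.86, SE 0.173, adjusted p = 1.13e-18, 12 of 12 dogs). No range overlapped in these 3 contrasts. In CD8+ effector against naive cells BTLA was lower by 1.25 on the log2 scale (54 UMIs in each, adjusted p = 0.00117), a call lost with doublets kept, with looser limits and without correction across dogs.

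CD274, the ligand of PDCD1, was a monocyte gene by level, with a wide range between dogs. It averaged 56.7 ± 68.6 CPM in the other monocytes, with a lowest dog of 6.05, a median of 32.7 and a highest of 291. IFN signature monocytes had 51.0 ± 71.9 CPM (n = 11), CD4+ monocytes 49.9 ± 42.1 and CD4- monocytes 32.9 ± 32.9 CPM (n = 17 each), with no step between them beyond the spread. The step down to the M-MDSC-like class, at 11.2 ± 14.4 CPM (n = 10), was just beyond it. cDC had 0.79 CPM.

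Monocytes had 6.88, 24.5 and 152 CPM of CD274 and T cells 1.77, 3.25 and 4.32 CPM, without overlap (log2 fold change 3.09, SE 0.232, adjusted p = 2.99e-11, 17 of 17 dogs). Dendritic cells had 0, 0.701 and 1.38 CPM against 6.55, 19.2 and 41.6 CPM in the monocytes of the same 12 dogs, again without overlap (log2 fold change −5.31, SE 0.298, adjusted p = 2.52e-16). IFN signature monocytes had 11.2, 27.4 and 235 CPM against 7.97, 19.5 and 128 CPM in the other monocytes, higher in 10 of 11 dogs. The log2 fold change was 0.64 (SE 0.103, adjusted p = 4.81e-07), and the call was lost without OS dog 1 (0.52), at 10 cells per dog (0.56) and at resolution 1.5 of the clustering (0.52), each below the fold threshold, and without the block (adjusted p = 0.741). With doublets kept or without correction across dogs, this was not the most common class among the cells of any cluster, so none took its name. In CD4+ monocytes 4.01% ± 3.43 of thinned cells had a CD274 UMI, against 0.496% ± 0.352 of naive CD4 T cells (17.9% and 1.78% unthinned).

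VTCN1 (B7-H4), a ligand of the B7 family known as an inhibitor of T cells, was found in NK and antigen-experienced CD8 T cells. NK cells had 81.0 ± 30.8 CPM (n = 5; 41.9 to 122), CD8+ memory cells 50.9 ± 29.3 CPM (n = 17; 10.1 to 112), the other CD8 T cells 39.4 ± 23.8 CPM (n = 10) and CD8+ effector cells 36.4 ± 26.7 CPM (n = 17; 0.268 to 97.5), with no step beyond the spread. pDC had 14.1 ± 10.5 CPM (n = 3), and the other classes had at most 5.03 CPM. Naive CD8 T cells had 0, 0 and 4.55 CPM from 11 UMIs and CD8+ effector cells 0.271, 31.3 and 95.7 CPM from 1365, a log2 fold change of 5.49 (SE 0.274, adjusted p = 1.69e-21) in 17 of 17 dogs. DN T cells had 6 VTCN1 UMIs, at 0, 0 and 4.01 CPM, against 1.92, 31.8 and 89.9 CPM in the other CD8 T and NK cells (log2 fold change −4.73, SE 0.347, adjusted p = 2.09e-19, 14 of 14 dogs). At 1000 UMIs, 9.08% ± 5.13 of NK cells, 5.73% ± 4.09 of CD8+ memory cells and 0.321% ± 0.529 of neutrophils had a VTCN1 UMI (33.1%, 20.7% and 0.669% unthinned).

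NK cells and CD8+ effector cells, both cytotoxic, differed in several of the 9 genes in the 5 dogs with enough NK cells. VTCN1 had 46.8, 77.3 and 135 CPM in NK cells and 20.2, 32.9 and 63.0 CPM in CD8+ effector cells (log2 fold change 1.10, SE 0.234, adjusted p = 0.00174, 4 of 5 dogs). CTLA4 had 0 UMIs in NK cells against 147, at least 8.24-fold lower when 3 counts over the group are taken as the floor. LAG3 had 0 against 78, at least 4.37-fold lower by the same floor, and PDCD1 2 against 170, a ratio of 14.3 with a counting interval from 3.89 to 119. These intervals and floors cover counting error only and hold for the cells kept here. With doublets kept the log2 fold change of CTLA4 was −2.17 (edgeR adjusted p = 0.212) and that of LAG3 −3.31 (adjusted p = 0.0474), and with looser limits on cells that of CTLA4 was −2.33 (adjusted p = 0.0365). The LAG3 call was lost whichever of the 5 dogs was left out (edgeR adjusted p from 0.0114 to 0.0418), that of VTCN1 without healthy dog 3 or OS dog 6, and that of PDCD1 without OS dog 2. The number of calls fell from 4 to 2 without healthy dog 3, OS dog 2 or OS dog 6, to 3 without healthy dog 1 or 5, and to 0 without the block.

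The remaining calls lay in contrasts where the gene was low or the cell types distant. Against T cells, B cells were lower in ICOS (log2 fold change −8.34) and CTLA4 (−7.05) in 17 of 17 dogs, and in LAG3 (−1.92) and VTCN1 (−2.12). Monocytes were lower than T cells in CTLA4 (−7.62), ICOS (−7.45), PDCD1 (−6.88) and TIGIT (−4.01), and in VTCN1 (−3.88), LAG3 (−3.64) and BTLA (−2.18), while HAVCR2 did not pass (−0.14, adjusted p = 0.264). Plasma cells were lower than B cells in HAVCR2 (−2.34, 11 against 193 UMIs), and higher in ICOS on 18 against 12 UMIs (2.02, adjusted p = 0.00435), a call lost with DESeq2 (adjusted p = 0.0151), with looser limits and without healthy dog 6, OS dog 8 or OS dog 9. Dendritic cells were higher than monocytes in VTCN1 (2.27, 54 UMIs), a pool that includes the pDC, whose mean VTCN1 level was above that of cDC. Neutrophils were lower than monocytes in CD274 (−2.07) and HAVCR2 (−1.47) and higher in VTCN1 (2.49, 19 UMIs) and CTLA4 (1.82, 15 UMIs, higher in 5 of 17 dogs), the last lost without OS dog 1, 2, 4 or 8.

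**Figure D3:**
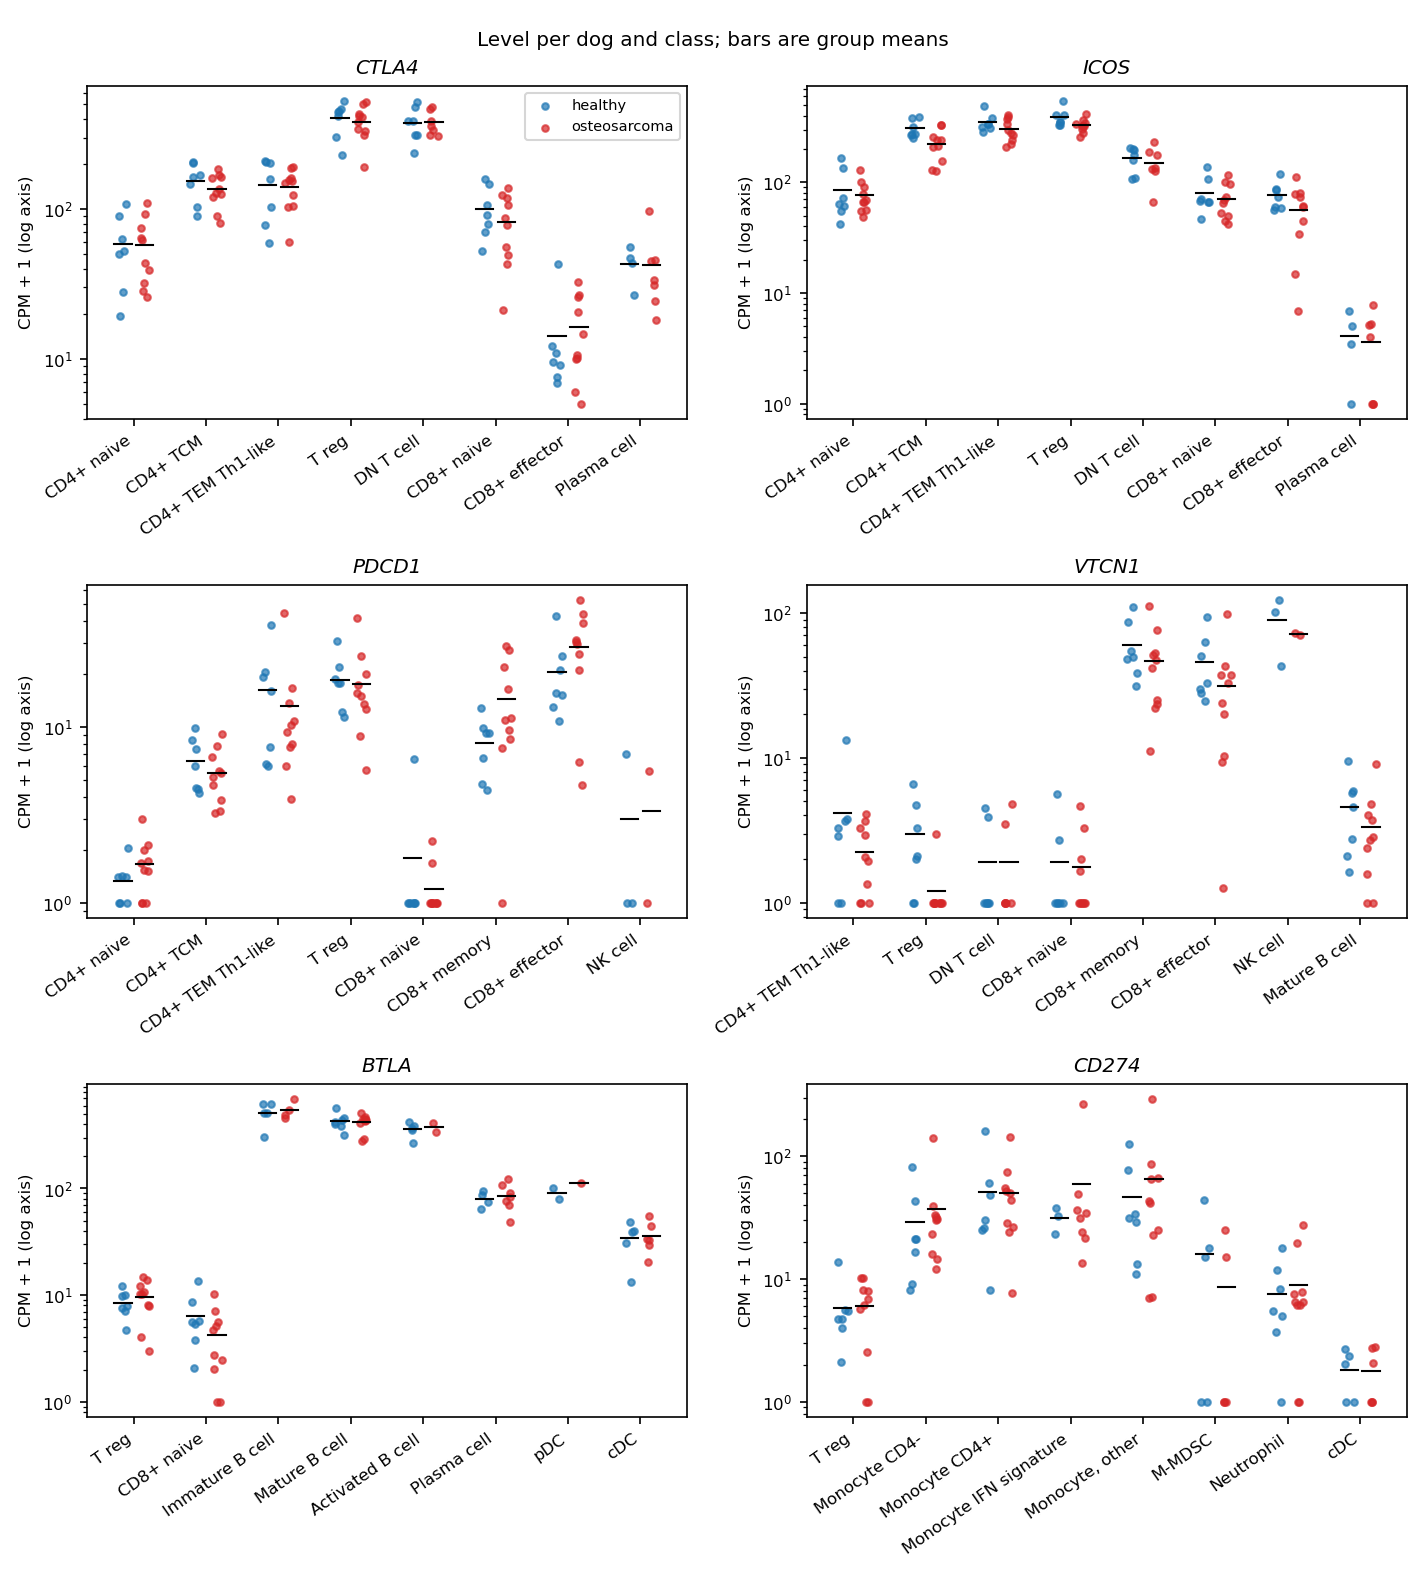
Level of 6 of the 9 genes in each dog and class, in CPM plus 1 on a log axis, with healthy dogs in blue, OS dogs in red and bars at the group means. In T reg and CD8+ effector cells the healthy and OS points overlap for each gene plotted there, and single dogs range from 6.05 to 291 CPM for CD274 in the other monocytes and from 0.268 to 97.5 CPM for VTCN1 in CD8+ effector cells.

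Other genes of the same pathways were taken from lists of 13 ligands and binding partners, 8 costimulatory receptors and 8 other inhibitory receptors, of which 11, 8 and 6 had a row. In T reg against other CD4 T cells, 2 of 8 costimulatory receptors were higher and 1 lower, with a median log2 fold change of 0.32 where that of all genes was −0.08, and where 5.64% of all genes were higher and 6.5% lower. Of the ligands 2 of 10 were higher, LGALS3 (1.62) and LGALS9 (1.25), and of the other inhibitory receptors 1 of 6 was lower. The higher costimulatory receptors were TNFRSF18 (GITR; 2.88, adjusted p = 4.74e-43) and TNFRSF4 (OX40; 2.19, adjusted p = 2.24e-33), both members of the TNF receptor family. In memory against naive CD4 T cells 5 of 8 costimulatory receptors were higher and none lower, with a median of 0.76 against 0.01 for all genes. There 3 of 10 ligands and 2 of 6 other inhibitory receptors were higher and none lower, where 9.39% of all genes were higher and 4.72% lower. The largest were LGALS3 (6.55), a galectin, and KLRG1 (3.74) and CD96 (3.70), receptors of T and NK cells. TNFRSF4 also rose there (3.08).

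In CD8+ effector against naive cells 3 of 5 other inhibitory receptors were higher and 1 lower, with a median log2 fold change of 3.63 against 0.04 for all genes, of which 13.8% were higher and 9.58% lower. Of the ligands 4 of 9 were higher, and of the costimulatory receptors 1 of 7 was higher and 1 lower. CD244 had 1009 UMIs in effector and 0 in naive cells, KLRG1 rose by 5.82, CD160 by 5.01 and CD80, a ligand of CD28 and CTLA4, by 3.90. In DN T cells 1 of 6 other inhibitory receptors was higher and 3 lower (median −3.04), 1 of 7 costimulatory receptors higher and 3 lower, and 2 of 9 ligands lower, where 3.65% of all genes were higher and 8.67% lower. CD244 had 1 UMI in the DN T cells, and KLRG1 was lower by 4.59, CD160 by 3.86 and CD96 by 3.32 on the log2 scale. In monocytes against T cells 8 of 11 ligands and binding partners were higher and 1 lower, with a median of 2.95 against −0.12 for all genes, of which 24.2% were higher and 27.3% lower. CD96 was lower by 9.23, CD27, a costimulatory receptor, by 8.72 and PVRIG, an inhibitory one, by 8.46, and CD86, the ligand of CD28 and CTLA4, was higher by 8.14. In the same contrast 7 of 8 costimulatory receptors were lower and 1 higher (median −7.07), and 5 of 6 other inhibitory receptors lower and 1 higher. In dendritic cells against monocytes 2 of 11 ligands were higher and 5 lower, 1 of 4 costimulatory receptors was higher, and 1 of 4 other inhibitory receptors was higher and 1 lower, where 16.1% of all genes were higher and 17.7% lower. PDCD1LG2, the other ligand of PDCD1, was lower by 4.40, and FGL1, a ligand of LAG3, was lower and had no UMI in cDC or pDC. CD226, an activating receptor that shares the ligand PVR with TIGIT, was higher by 5.53 and CD96 by 3.75.

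The counts of these lists in the remaining contrasts were as follows. B cells against T cells had 7 of 8 costimulatory receptors lower, 4 of 10 ligands higher and 2 lower, and 1 of 6 inhibitory receptors higher and 5 lower, where 14.8% of all genes were higher and 15.8% lower. Plasma cells against B cells had 2 of 4 costimulatory receptors lower, 4 of 9 ligands higher, and 2 of 5 inhibitory receptors higher and 1 lower, where 19.7% of all genes were higher and 24.1% lower. NK cells against CD8+ effector cells had 1 of 6 costimulatory receptors lower, 1 of 7 ligands higher and 1 lower, and 1 of 5 inhibitory receptors higher and 2 lower, where 2.4% of all genes were higher and 2.21% lower. Neutrophils against monocytes had 3 of 5 costimulatory receptors higher and 1 lower, 1 of 11 ligands higher and 5 lower, and 2 of 4 inhibitory receptors higher, where 17.5% of all genes were higher and 33% lower. IFN signature monocytes had 1 of 11 ligands higher, LGALS9 by 1.09, where 1.23% of all genes were higher. These counts are a description and were not tested against those shares.

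The class with the highest mean CPM is given here for each ligand or partner, as a description. CD86 was highest in IFN signature monocytes at 336 ± 75.6 CPM and CD80 in Th2-like CD4 T cells at 279.6 ± 107 CPM, while CD4+ monocytes had 6.38 ± 3.40 CPM of CD80. PDCD1LG2, next to CD274 in the genome, was highest in CD4+ monocytes at 159.8 ± 126 CPM, and both ligands of PDCD1 thus had their highest levels in monocytes. TNFRSF14, the partner of BTLA, was highest in IFN signature neutrophils at 39.6 ± 44.1 CPM (n = 4). PVR, bound by TIGIT, was highest in the other monocytes at 16.4 ± 7.41 CPM, and NECTIN2 in cDC at 9.45 ± 4.61 CPM. LGALS9 was highest in IFN signature neutrophils at 1285 ± 373 CPM (n = 4), and cDC, where HAVCR2 was highest, had 131 ± 50.1 CPM. In dendritic cells against monocytes LGALS9 was lower (log2 fold change −0.89, edgeR adjusted p = 1.8e-07). HMGB1 was highest in plasma cells at 1406 ± 198 CPM (n = 11).

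The genes whose mean level over the 31 classes was most like that of each of the 9 were found among 10208 genes, by Pearson's r of log2(CPM + 1), as a description in which the classes share libraries and depth. CD28 was most like CTLA4 (r = 0.925), and CD28, CTLA4 and ICOS are neighbors in the genome with no protein-coding gene between them. CAMK4 (0.971), BCL11B (0.962) and UBASH3A (0.960) were most like ICOS, RCAN2 (0.892) and SH2D2A (0.881) most like PDCD1, and VAV2 (0.951) most like BTLA. FOXP3 (0.775) and IKZF4 (0.762) were among the 3 most like TIGIT. CD274 was followed by ING1 (0.914), CFLAR (0.906) and MAFF (0.902), HAVCR2 by UBA3 (0.837), and VTCN1 by ADAMTS16 (0.902) and STYK1 (0.891). For LAG3 the named genes were RCAN2 (0.695) and ORC3 (0.631). FOXP3, BCL11B, RCAN2 and EFHC2, the gene second to CD28 for CTLA4 (0.919), also served to name classes. Among the 9, CTLA4 and ICOS were alike with r = 0.858, and CTLA4 and PDCD1 with r = 0.638.

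The main question of the design was whether these genes differ between OS and healthy dogs within a cell population. In edgeR's quasi-likelihood test on counts summed per dog, none of the genes tested passed in any of 13 populations. All 9 were tested in 7 of them, 8 in B cells, 7 each in naive CD8 T cells, monocytes and neutrophils, 6 in DN T cells and 5 in dendritic cells. Of all genes, 0.0123% were called in all leukocytes, 0.0143% in monocytes and 0.00893% in dendritic cells, and 0% in T cells, CD4 T cells, T reg, naive CD4, CD8 T and NK cells, CD8+ effector, naive CD8, DN T, B cells and neutrophils. DESeq2 also called none of those it tested. At an unadjusted p under 0.05 the number of the 9 was 2 in neutrophils, 1 each in all leukocytes, CD4 T cells, T reg, CD8 T and NK cells, CD8+ effector, B cells and dendritic cells, and 0 in the other 5. Between 4.13% and 6.60% of all genes had such a p.

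None of the receptors of CD4 and DN T cells passed between the 2 groups of dogs, and likeness of the groups was not itself tested. These values are CPM scaled within each population and so differ slightly from the levels above. CTLA4 in T reg cells was 411 ± 108 CPM in healthy and 392 ± 96.5 CPM in OS dogs, with a log2 fold change (OS over healthy) of −0.06 and a 95% interval from −0.42 to 0.29. CTLA4 in DN T cells ran from 247 over 412 to 545 CPM in 7 healthy dogs and from 327 over 393 to 502 CPM in 7 OS dogs, and the log2 fold change was 0.0019 with an interval from −0.36 to 0.36. ICOS in T reg cells was 331, 362 and 528 CPM in healthy and 258, 330 and 427 CPM in OS dogs. The groups overlapped, and the log2 fold change of −0.23 had an interval from −0.49 to 0.03 (unadjusted p = 0.0845, edgeR adjusted p = 0.992). TIGIT in T reg cells was 0, 7.13 and 12.4 CPM in healthy and 0, 8.74 and 18.99 CPM in OS dogs, with a log2 fold change of 0.21 (interval −0.57 to 1.00) that ran from 0.05 to 0.40 when each dog was left out in turn.

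The genes of CD8+ effector cells had wider intervals. PDCD1 ran from 9.29 over 14.6 to 43.6 CPM in healthy and from 3.74 over 30.0 to 53.6 CPM in OS dogs, which overlapped, and the log2 fold change was 0.50 with an interval from −0.28 to 1.28 (0.34 to 0.82 leaving out 1 dog). LAG3 ran from 3.098 over 7.58 to 14.6 CPM in healthy and from 1.25 over 7.85 to 42.5 CPM in OS dogs, with a log2 fold change of 0.33 (interval −0.56 to 1.22; 0.09 to 0.50 leaving out 1 dog), which was −0.104 with age as a covariate. VTCN1 ran from 24.998 over 33.4 to 87.97 CPM in healthy and from 0.286 over 28.6 to 99.6 CPM in OS dogs, with a log2 fold change of −0.54 (interval −1.59 to 0.52; −1.11 to −0.30 leaving out 1 dog). OS dog 4 had 1 VTCN1 UMI in 872 effector cells and OS dog 9 had 444 in 1138, so the OS dogs spanned the healthy range on both sides.

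In B cells, monocytes and dendritic cells the groups overlapped as well. BTLA in B cells was 315, 457 and 591 CPM in healthy and 281, 466.2 and 574 CPM in OS dogs, with a log2 fold change of −0.02 and an interval from −0.31 to 0.28. CD274 in monocytes was 6.22, 18.6 and 74.8 CPM in healthy and 9.76, 28.4 and 140 CPM in OS dogs, with a log2 fold change of 0.39 and an interval from −0.70 to 1.48. The highest monocyte value belonged to OS dog 1, and the log2 fold change was −0.19 without that dog and −0.00181 with age as a covariate. HAVCR2 in dendritic cells was 37.1, 43.9 and 50.7 CPM in 5 healthy and 17.2, 46.3 and 66.2 CPM in 7 OS dogs, with a log2 fold change of 0.07 (interval −0.47 to 0.60). The mix of cDC and pDC in each dog, which differ in HAVCR2, was not taken into account. The edgeR adjusted p for these 10 combinations was at least 0.895.

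**Figure D4:**
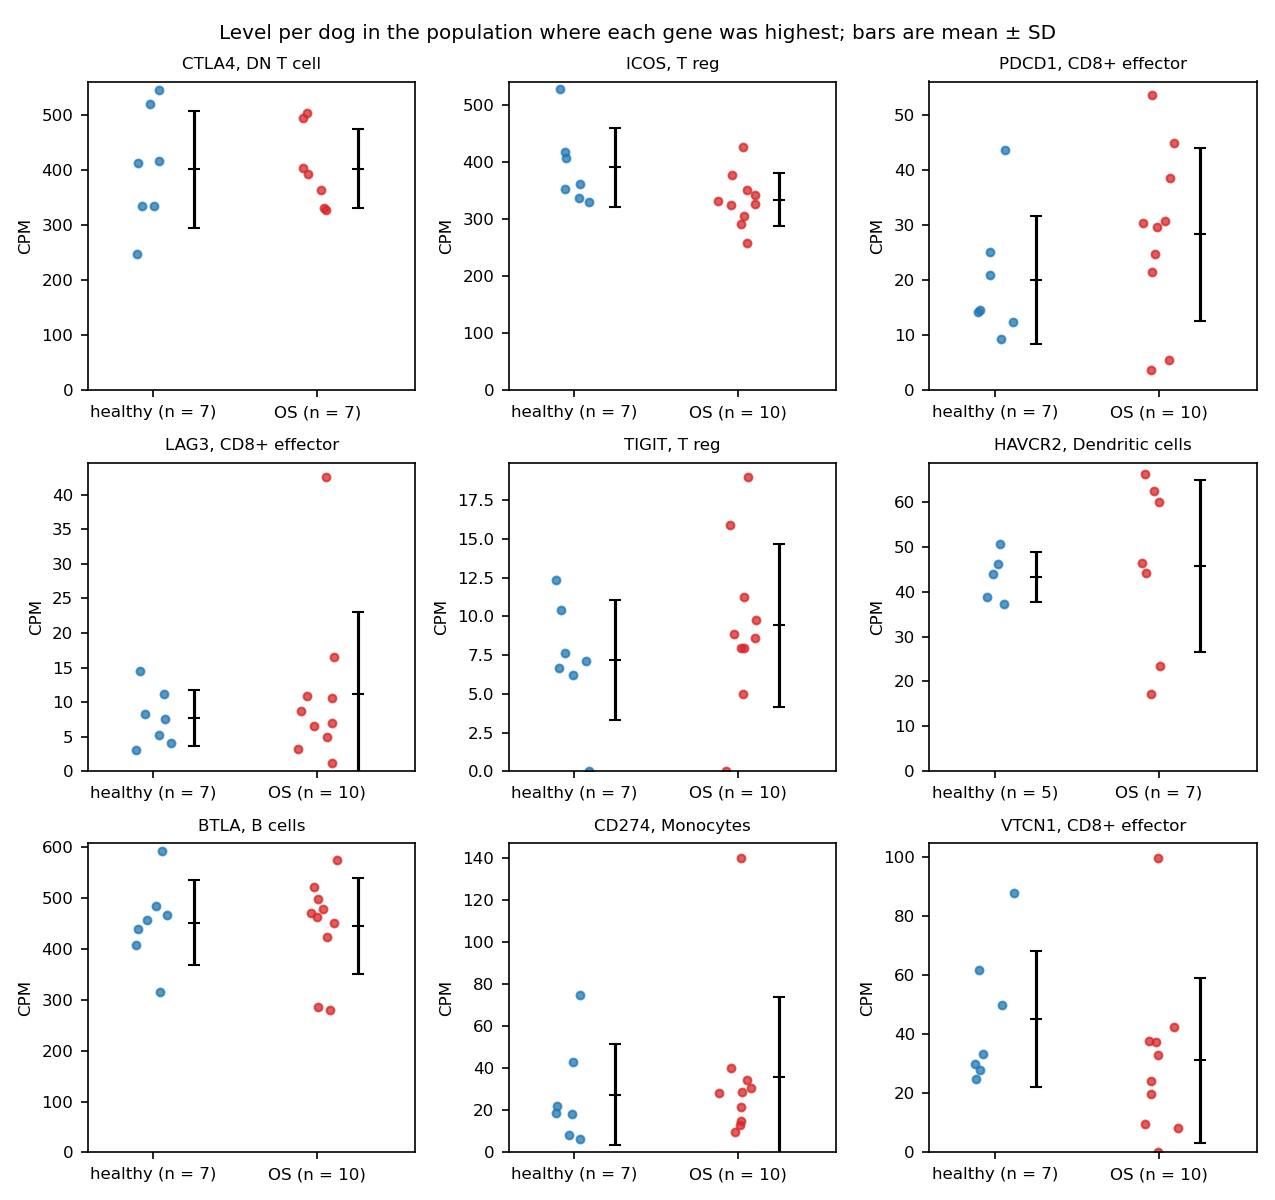
Level per dog of each gene in the population where it was highest among those compared, by CPM scaled within each population (for CTLA4 the DN T cells). Levels are TMM-scaled CPM on a linear axis, with healthy dogs in blue, OS dogs in red, and mean ± SD, where a bar that would pass below 0 ends at 0. The groups overlap in every panel, and OS dog 1 stands at 140 CPM for CD274.

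The smallest unadjusted p belonged to VTCN1 in CD4 T cells, where it is low. It was 1.72 ± 1.04 CPM in healthy dogs (114 UMIs) and 0.549 ± 0.263 CPM in OS dogs (46 UMIs), with a log2 fold change of −1.65 (unadjusted p = 0.00015, edgeR adjusted p = 0.545). The other combinations with a small unadjusted p were BTLA in CD8 T and NK cells (−0.82) and in CD8+ effector cells (−1.25), CD274 in B cells (−1.08), LAG3 in dendritic cells (−0.82) and in neutrophils (1.08), VTCN1 in T reg cells (9 against 1 UMIs), CTLA4 in neutrophils (3 against 12 UMIs) and BTLA in all leukocytes (−0.68). All failed the correction.

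**Figure D5:**
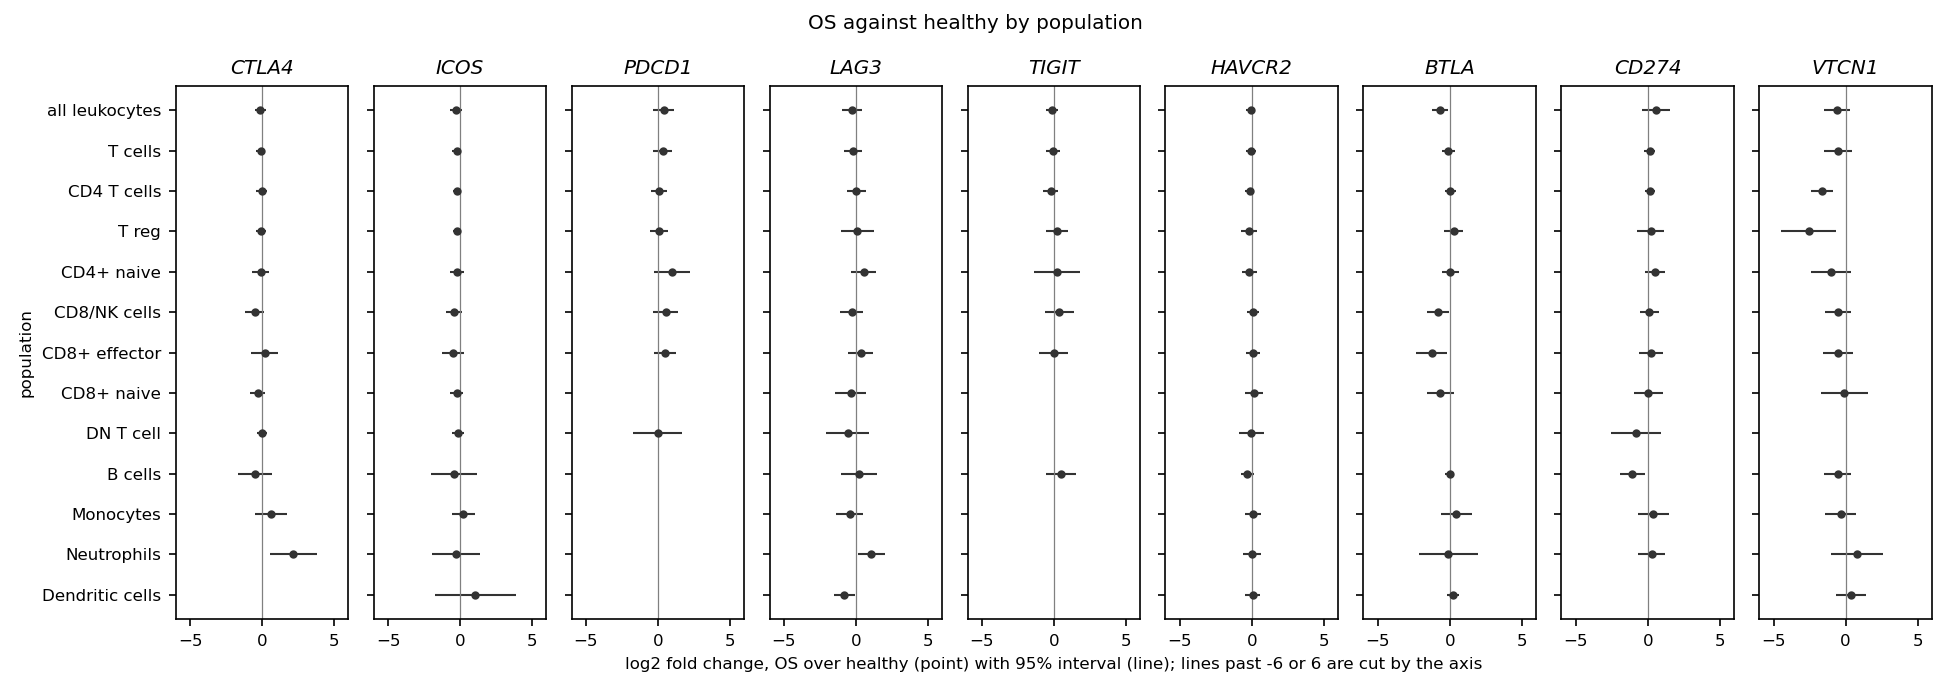
Log2 fold change of OS over healthy dogs, with 95% interval, for each of the 9 genes (panels) in each of 13 populations (rows) where it was tested. Nearly all intervals include 0, and no gene passed the adjusted threshold.

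None of the lists of related genes had a member past both thresholds in any of the 13 populations. Whether 4 of the class contrasts differed between OS and healthy dogs was tested as an interaction, for T reg against other CD4 T cells (0.0069% of all genes called), CD8+ effector against naive, monocytes against T cells and B cells against T cells (0% of all genes called in each of these 3). None of the 9 genes, all tested in each, passed in edgeR, and 1 had an unadjusted p under 0.05, CD274 in B cells against T cells (−1.18, unadjusted p = 0.0118, adjusted p = 0.994).

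In the sum of all leukocytes of a dog, no gene passed an adjusted p of 0.05, the threshold for this test, and BTLA had the lowest. In such a sum fewer cells of a type and less RNA per cell cannot be told apart. BTLA ran from 35.1 over 42.1 to 61.2 CPM in healthy and from 11.1 over 26.5 to 49.9 CPM in OS dogs, and the groups overlapped in the upper part of the OS range. The exact two-sided Wilcoxon rank-sum permutation test gave p = 0.00967, which became 0.087 after adjustment over the 9 genes, and edgeR gave a log2 fold change of −0.68 (adjusted p = 0.657). The adjusted exact permutation p of BTLA was 0.0416 without TMM factors, 0.0427 without healthy dog 5 and 0.011 without OS dog 4, and the difference in median log2 CPM, −0.72, ran from −1.12 to −0.32 leaving out 1 dog. B cells, which held most BTLA UMIs, were 11.8% ± 4.09 of leukocytes in healthy dogs (6.87% to 17.7%) and 6.43% ± 2.93 in OS dogs (1.75% to 11.02%), whereas BTLA within B cells was as given above. The study proposes that age likely had a part in its own lower B cell share of OS dogs. Age was not a covariate in the whole-sample test. VTCN1 ran from 4.44 over 6.12 to 18.1 CPM in healthy and from 1.36 over 3.32 to 19.4 CPM in OS dogs (exact permutation p = 0.0702, adjusted 0.316). The other 7 genes had adjusted p of 0.409 or more in the exact permutation test.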

How the data were processed

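The authors aligned the reads of each dog's library with Cell Ranger 7.0.0 to CanFam3.1 and deposited a filtered matrix of raw UMI counts per gene and cell barcode; these counts were the start here. The study names Seurat for its own analysis, which was not used. Depth ranged from 7740230 to 56510134 UMIs per dog.

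Cells with 200 to 4500 genes, 500 to 20000 UMIs and less than 10% mitochondrial counts were kept (Python 3.11.15). Doublets were scored by comparison with simulated doublets, removing 0.8% per 1000 barcodes, which took 1.05% to 6.20% of cells per dog. Cells were clustered (leidenalg 0.10.2, resolution 1.0) on principal components corrected across dogs, without the 9 genes and the listed genes. Counts were summed per dog and class (at least 25 cells) and tested with edgeR 4.0.16 in R 4.3.3 (quasi-likelihood, TMM, at least 10 counts over all sums, Benjamini-Hochberg over all genes). The dog was the replicate, and class contrasts used the dog as a block. Calls required adjusted p under 0.01 and a log2 fold change beyond 0.58 in either direction. Neighbors in an order of classes were said to differ beyond the spread where the mean paired difference of log2(CPM + 1) exceeded 1 SD of these differences. This rule takes no account of the number of dogs, so a step within the spread does not show equal levels. Whole-sample levels were compared with an exact permutation test. The fits were also run on simulated data in which only genes of high counts were changed, which does not cover genes of few counts.

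The genes and lists were chosen with earlier results of these data known. All 9 genes are named in each comparison by values or counts, and other genes come from the lists (past both thresholds, at most 4 per comparison, largest fold first) or from the 3 most alike in level. In 4 contrasts the lists are given by counts alone. The ligand levels by class, LGALS9 in dendritic cells against monocytes and CD28 in plasma cells were chosen after their values were seen. Of 13 planned class contrasts 11 had enough dogs. Alternatives covered normalization, DESeq2 1.42.0, filters, cell limits, doublets, clustering, age, blocks and each dog left out, and a fit on trended dispersions was added after seeing the data. Where cells were clustered again, each cluster took the most common name its cells had in the main clustering. Those alternatives are therefore not independent namings from markers. CTLA4 and the other genes are those of the Ensembl annotation in the files, and names of neighbors come from RefSeq for UU_Cfam_GSD_1.0, whose coordinates were not used.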

Additional observations from a re-analysis of the deposited data

Results flagged for a closer look

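In 9 of the 36 groups of dogs examined, 1 dog stood apart from the others of its group by the gap between it and the nearest dog, relative to the range (Dixon's 95% limit). For normally distributed values chance alone flags about 1 in 20 groups, but CPM need not be so distributed, and the groups of 1 gene share dogs. Every flagged dog was the highest of its group, so the number of flags cannot be set against that rate. CD274 in monocytes was 140 CPM in OS dog 1, where the other OS dogs had 9.76 to 40.2 CPM, and the same dog had 51.1 CPM of CD274 in all leukocytes. VTCN1 in CD8+ effector cells was 99.6 CPM in OS dog 9 against 0.286 to 42.6 CPM in the other OS dogs, and 19.4 CPM in all its leukocytes. LAG3 in CD8+ effector cells was 42.5 CPM in OS dog 5 against 1.25 to 16.5 CPM in the others. In all leukocytes OS dog 4 had 147 CPM of ICOS and 7.15 CPM of LAG3, OS dog 3, the dog with the fewest cells, had 18.1 CPM of HAVCR2, and healthy dog 3 had 61.2 CPM of BTLA. The causes were not tested.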

How the results depend on the processing

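In edgeR and DESeq2, none of the genes tested in OS against healthy dogs passed under any alternative run (filterByExpr gave no value in neutrophils), while the exact test of BTLA in whole samples passed under 3, given below. Among class contrasts, the number of calls in T reg, memory CD4, CD8+ effector, DN T, B cell, monocyte, dendritic cell, plasma cell and neutrophil contrasts stayed within 1.5 times, although single genes were lost, such as HAVCR2 and ICOS in T reg (BTLA was gained, giving 4 calls against 5) and HAVCR2 and BTLA in CD8+ effector cells (4 against 6) with doublets kept. NK against CD8+ effector cells gave 2 calls with DESeq2 and with doublets kept and 0 without the dog as a block (2 to 3 with 1 dog left out), against 4. IFN signature monocytes gave 0 at 10 cells per dog, at resolution 1.5 and without the dog as a block (0 to 1 with 1 dog left out, 0 without OS dog 1). With doublets kept or without correction across dogs no cluster took this name. ICOS in T reg against other CD4 T cells was −0.00811 with doublets kept. The cause was not tested.

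Several OS against healthy differences, none of which had passed, changed sign. CTLA4 in T reg cells was 0.253 with doublets kept and 0.0194 with looser limits (−0.158 to 0.00927 leaving out 1 dog), and in DN T cells −0.121 at 10 cells, −0.0787 with doublets kept, −0.0665 with looser limits, −0.128 without correction, −0.12 at resolution 1.5 and −0.0126 with age (−0.0913 to 0.085). BTLA in B cells was 0.0119 with DESeq2's size factors, 0.0138 with its Wald test and 0.00388 with filterByExpr (−0.0879 to 0.0584), CD274 in monocytes, at 0.39, −0.00181 with age (−0.186 to 0.884), HAVCR2 in dendritic cells −0.0217 at 10 cells and −0.00352 with doublets kept (−0.0443 to 0.200), and LAG3 in CD8+ effector cells, at 0.33, −0.104 with age. In whole samples the BTLA difference in median log2 CPM, −0.72, was −0.79 without TMM factors (adjusted permutation p = 0.0416) and −1.12 to −0.32 leaving out 1 dog, with adjusted exact permutation p = 0.0427 without healthy dog 5 and 0.011 without OS dog 4. That of ICOS ran from −0.232 to 0.0215.

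Healthy and OS dogs share replicate numbers, but same-numbered dogs did not deviate together (7 pairs, r from −0.286 to 0.342, 3 over 0.1, 1 best with its own number). A block on the replicate number left 0 calls in OS against healthy and gave CTLA4 in DN T cells −0.00711. Thinned to 2000 UMIs, the shares rose with depth to 49.0% for CTLA4 and 41.9% for ICOS and 2.03% for TIGIT in T reg cells, 4.47% for PDCD1 in CD8+ effector cells, 2.40% for LAG3 and 11.8% for HAVCR2 in cDC, 15.8% for VTCN1 in NK cells and 65.7% for BTLA in immature B cells.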

Other observations

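Cycling T cells had enough dogs only at 10 cells per dog, in 13 dogs, and were then compared with all other T cells. LAG3 (log2 fold change 1.81, edgeR adjusted p = 2.59e-07), PDCD1 (1.26, 2.67e-05) and CTLA4 (0.71, 1.96e-06) were higher and VTCN1 (−1.53, 0.00332) was lower, 4 of 9 genes where 24.2% of all genes were called. ICOS was 0.41 higher with an adjusted p of 0.00554 and missed the fold threshold. IFN signature T cells, in 3 dogs, had none of the 9 genes called against other CD4 T cells, where 0.252% of all genes were.

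After thinning to 1000 UMIs, with the cells of all dogs pooled, 49.9% of T reg cells had a UMI of at least 1 of the 9 genes and 11.6% of at least 2. In naive CD4 T cells these shares were 13.1% and 0.942%, and in Th1-like cells 36.3% and 4.55%. Nearer to the T reg class were IFN signature T cells (43.5% and 7.83%), DN T cells (43.3% and 5.34%) and immature B cells (40.2% and 0.344%). No T reg cell had more than 3 of the 9 genes at this depth.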
